A study of Mus musculus with 23 samples.

Results

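Most mitochondrial carriers and sideroflexins are proteins of the inner mitochondrial membrane that move metabolites between the cytosol and the matrix. The members were taken by symbol from a liver gene count table: every gene named Slc25a, Sfxn1 to Sfxn5, and the pyruvate carrier subunits Mpc1 and Mpc2. Of 55 such rows among the 49585 of the table, 48 averaged at least 10 counts per library and were tested among 14466 genes. The 7 rows left out had means of 0 counts (Slc25a54), 0.304 (Slc25a41), 0.609 (the pseudogene Slc25a5-ps), 2.35 (Slc25a31), 5.35 (Slc25a2), 6.09 (Slc25a43) and 7.48 (Slc25a18). The lowest rows that passed were Sfxn4 with a mean of 18 counts and Slc25a35 with 26.3.

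The inner membrane is closed to most solutes, and SLC25 carriers are built from repeated pairs of membrane helices that exchange or carry nucleotides, phosphate, carboxylates, amino acids, acylcarnitine and cofactors. In liver they serve the export of ATP, the export of citrate for fat synthesis, the entry of fatty acids for oxidation, the urea cycle and the supply of iron for haem. Sideroflexins are a separate family, of which Sfxn1 carries serine into the matrix, and Mpc1 and Mpc2 together form the carrier for pyruvate.

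Polyadenylated RNA was sequenced from the livers of 23 C57Bl/6J pups whose birth dam, foster dam, both or neither had metabolic syndrome (MetS), which the study set up to separate exposure before birth from exposure during nursing. Dams ate a diet with 10% fat (control, Ct) or 45% fat for 7 or 17 weeks, starting at 3 weeks of age, and were mated to males on the control diet. Litters were cut to 5 pups on the day of birth and moved to foster dams that had delivered the same day. The name of a group gives the birth dam and then the foster dam: Ct-Ct pups were never exposed (n = 6), MetS-Ct pups were exposed before birth (n = 6), Ct-MetS pups while nursing (n = 6) and MetS-MetS pups at both times (n = 5). All were taken at postnatal day 21, except MetS-Ct_97, which is labelled day 22. For each pup, neither sex nor litter nor the length of the dam's diet is given in the sources used here, so p-values measure the spread between these livers and are too small if some pups are siblings.

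Library totals ranged from 16876460 to 34527932 counts, and the members together held 0.453% to 0.474% of the counts in the group means. The 6 hepatocyte markers listed summed to between 105500 and 147300 CPM (counts scaled to library size) in each library, as the liver label implies. One library stood apart: MetS-MetS_110 held 660.8 CPM of 5 skeletal muscle markers, against at most 4.747 CPM in the other 22, and 13.86 CPM of adipocyte markers, against at most 3.495. The summed level of 8 Kupffer cell markers was 346 to 448 CPM in Ct-Ct livers and 461 to 531 CPM in MetS-Ct livers. It was 516 to 732 CPM in the Ct-MetS group and 443 to 721 CPM in the MetS-MetS group. With MetS nursing 5 of the 8 rose (beside 2.27% of all genes called higher by edgeR). In MetS-Ct against Ct-Ct all 8 had a log2 fold change above 0, 3 with an unadjusted p under 0.05, and 0 were called. In MetS-MetS against MetS-Ct all 8 were likewise above 0, 3 with an unadjusted p under 0.05, and 0 were called. The sum of 8 cell cycle genes was 255 to 396.4 CPM in Ct-MetS livers, above the 109.8 to 238.1 CPM of every Ct-Ct liver, while MetS-MetS (144 to 274 CPM) and MetS-Ct (65.3 to 287 CPM) overlapped Ct-Ct. With nursing exposure their median log2 fold change was 0.79, 7 of the 8 had an unadjusted p under 0.05 and 1, Ccnb2, rose (edgeR). In whole tissue, fewer cells of a type and less RNA per cell cannot be told apart.

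Levels of different members were compared per length. Per kilobase of exon (annotation GENCODE M21), the ADP/ATP carrier Slc25a5 had the highest mean level over the 23 livers at 221 CPM per kb, followed by Slc25a47, a carrier found mainly in liver, at 206. The ranges of these 2 overlapped, from 186 to 259 and from 122 to 295 CPM per kb. The glutathione carrier Slc25a39 came next at 94.7 CPM per kb, with its lowest library, 78.3, below the highest of Slc25a13 (93.8). Below it, the aspartate-glutamate carrier Slc25a13 (68.9 CPM per kb), Mpc1 (62.3), the citrate carrier Slc25a1 (61.0), the ornithine carrier Slc25a15 (60.4) and the phosphate carrier Slc25a3 (59.8) lay so close that their ranges all overlapped. At the other end stood Sfxn4 (0.230 CPM per kb) and Slc25a35 (0.259). Copies of Slc25a5 exist as pseudogenes, so its count is uncertain where reads could be shared among them.

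**Figure D1:**
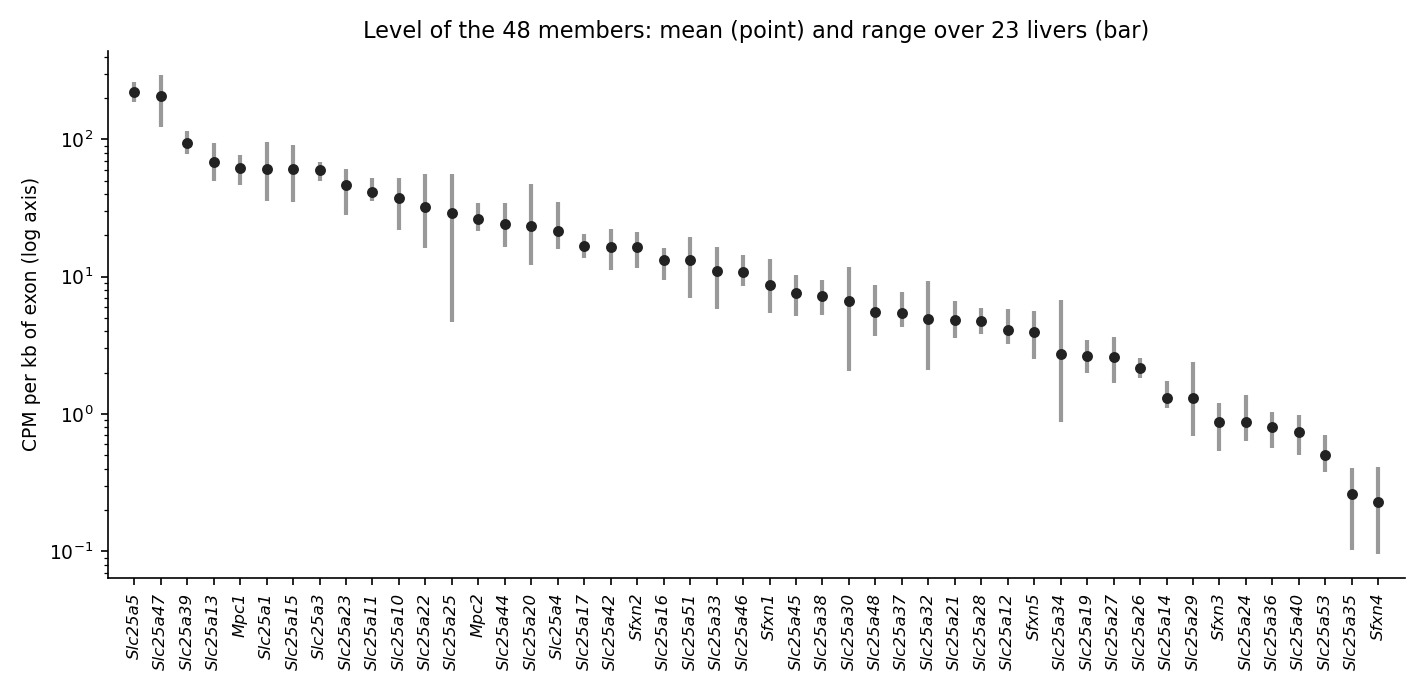
Mean level (points) and range over 23 livers (bars) of the 48 members, in CPM per kilobase of exon on a log axis. Slc25a5 and Slc25a47 lead at 221 and 206 CPM per kb, and the wide bar of Slc25a25 runs from 4.71 to 56.3.

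Members differed widely in how much they varied among pups of the same group. The pooled standard deviation within groups was 0.240 log2 units at the median member, close to 0.248 over all genes tested. Slc25a3 varied least at 0.104. The ATP-Mg/phosphate carrier Slc25a25 varied most at 1.12 log2 units, from 37.01 CPM in Ct-MetS_63 to 442 CPM in Ct-Ct_130. Within Ct-Ct its lowest, median and highest levels were 55.4, 158 and 442 CPM, within MetS-Ct 40.3, 342 and 434, and within Ct-MetS 37.01, 147 and 405. Levels in MetS-MetS, given here and later in the order of animal number from MetS-MetS_39 to MetS-MetS_157, were 239, 301, 319, 239 and 305 CPM, all inside the range of each other group. Slc25a34 (0.665 log2 units), Slc25a30 (0.630), the folate and flavin carrier Slc25a32 (0.527) and the NAD carrier Slc25a51 (0.496) followed.

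In pups exposed at both times 5 members changed. Comparing MetS-MetS pups with unexposed Ct-Ct pups, edgeR's quasi-likelihood test with Benjamini-Hochberg adjustment over all genes called 5 of 48 members at an adjusted p under 0.05 (10.4%), beside 5.78% of all genes. The carnitine-acylcarnitine carrier Slc25a20, the dicarboxylate carrier Slc25a10 and the serine carrier Sfxn1 rose (3 of 48, beside 3.06% of all genes called higher). Sfxn5 and the iron carrier Slc25a28 fell (2 of 48, beside 2.72% called lower). The median log2 fold change over the 48 members was 0.03, against -0.0038 over all genes. DESeq2 called 6 members there (9.3% of all genes), adding Slc25a13, and limma-voom called 4, without Slc25a28. By edgeR the count was 3 without Ct-Ct_4, Ct-Ct_139 or MetS-MetS_157, 4 without MetS-MetS_110, and 7 without Ct-Ct_33, which added Slc25a21 and Slc25a37. The share of all genes called moved as well, to 1.52% without Ct-Ct_129, 2.23% without Ct-Ct_139, 2.26% without MetS-MetS_110, 2.64% without MetS-MetS_157, 2.88% without Ct-Ct_4 and 3.71% without MetS-MetS_154, and to 9.36% without Ct-Ct_33. The Kupffer cell marker sums given above had higher medians in the exposed groups, and the cell cycle sums in both MetS-nursed groups, and the part of either in the results for the members was not tested.

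In Ct-MetS against Ct-Ct, 1 member was called, Sfxn5, which fell; 0.954% of all genes were called there, 0.366% lower and 0.588% higher. Leaving out 1 nursing-exposed liver brought that share to 0.0831% (Ct-MetS_169) or 0.554% (Ct-MetS_63). Leaving out 1 control liver brought it to 0.18% (Ct-Ct_10), 0.388% (Ct-Ct_129), 0.297% (Ct-Ct_4), 0.318% (Ct-Ct_139) or 1.7% (Ct-Ct_33). For nursing exposure averaged over both prenatal states (both MetS-nursed groups against both Ct-nursed groups), 4 members were called (8.33%, beside 4.22% of all genes). Slc25a20 and Slc25a10 rose (beside 2.27% of genes called higher) and Sfxn5 and Slc25a28 fell (beside 1.95% called lower), and DESeq2 called the same number of members (7.18% of all genes). Without the filter on low counts the number was 1, Sfxn5. Leaving out 1 library gave 1 member for 6 libraries (Ct-Ct_4, Ct-Ct_139, MetS-Ct_70, MetS-Ct_85, Ct-MetS_145 and MetS-MetS_154). It gave 2 for 9 libraries (MetS-MetS_109, MetS-MetS_110, MetS-MetS_157, Ct-MetS_169, Ct-MetS_63, Ct-MetS_24, MetS-Ct_97, Ct-Ct_130 and Ct-Ct_129), 3 or 4 for 7 and 6 for Ct-Ct_33. Over all genes the share was 2.41% without MetS-MetS_154, 2.48% without Ct-Ct_129, 2.7% without Ct-MetS_145, 2.73% without Ct-Ct_4, 2.78% without Ct-MetS_169, 2.81% without Ct-MetS_24 and 6.39% without Ct-MetS_50. The median log2 fold change over members was -0.06 (-0.01 over all genes), with 29 of 48 below 0.

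Exposure before birth gave no call among the members by edgeR. In MetS-Ct against Ct-Ct, 0 of 48 members were called (0% of all genes), and 5 had an unadjusted p under 0.05 (10.4%, beside 5.9% of all genes). There 0 were called by limma-voom and 1 by DESeq2, Sfxn1, where DESeq2 called 0.0968% of all genes. For prenatal exposure averaged over both nursing states 0 members were called (0.00691% of all genes), and 10 had an unadjusted p under 0.05 (20.8%, beside 16.3% of all genes). In that comparison 0 were called by limma-voom and 2 by DESeq2, Sfxn1 and Slc25a20 (1.14% of all genes). The comparisons of MetS-MetS with MetS-Ct (0.415% of all genes called), of MetS-MetS with Ct-MetS (0%) and of the interaction (0%) called 0 members by edgeR, limma-voom and DESeq2. Their members with an unadjusted p under 0.05 numbered 5 (10.4%, beside 14.1% of all genes), 10 (20.8%, beside 15.6%) and 4 (8.33%, beside 5.44%). In these 5 comparisons edgeR called 0 members whichever library was left out. The share of all genes in MetS-MetS against MetS-Ct ranged from 0.0346% without MetS-Ct_70 to 1.04% without MetS-MetS_39, with 15 libraries moving it by over 1.5 times. The singly exposed groups, Ct-MetS and MetS-Ct, were not compared with each other by a test. The comparisons against Ct-Ct share the same 6 control livers.

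**Figure D2:**
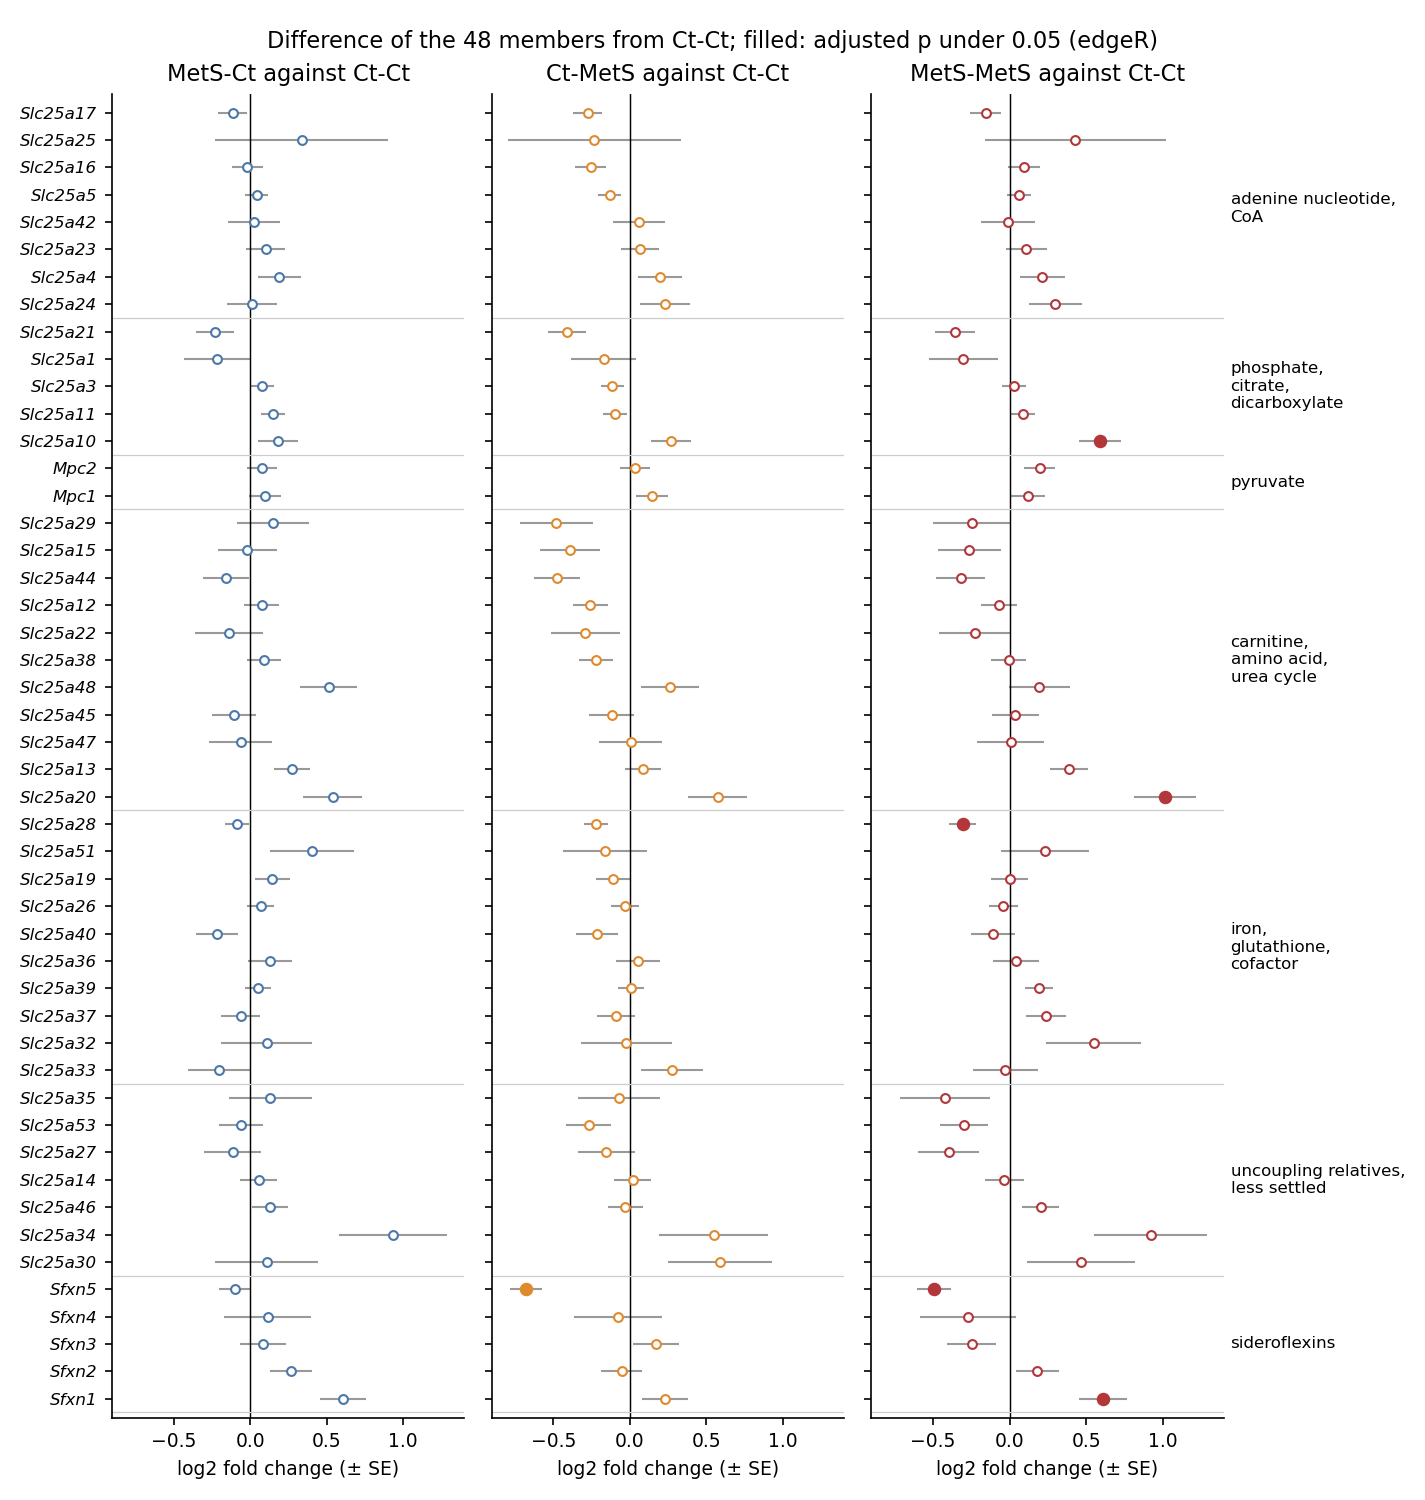
Log2 fold change with standard error of the 48 members against Ct-Ct in MetS-Ct, Ct-MetS and MetS-MetS, ordered by role. Filled points have an adjusted p under 0.05 by edgeR: none in MetS-Ct, Sfxn5 in Ct-MetS and 5 members in MetS-MetS.

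Of the 48 members, 39 had an upstream sequence in RefSeq (GRCm38.p6). The 250 bases before the start are shown for the 4 genes called with nursing exposure, which moved in opposite directions, with CCAAT boxes (CCAAT or its reverse complement ATTGG) in capitals, 5′ to 3′ on the gene's strand. Sfxn5 lies on the minus strand (chr6:85333423-85333672), as does Slc25a28 (chr19:43674882-43675131), and Slc25a10 (chr11:120491587-120491836) and Slc25a20 (chr9:108661886-108662135) lie on the plus strand.
Sfxn5: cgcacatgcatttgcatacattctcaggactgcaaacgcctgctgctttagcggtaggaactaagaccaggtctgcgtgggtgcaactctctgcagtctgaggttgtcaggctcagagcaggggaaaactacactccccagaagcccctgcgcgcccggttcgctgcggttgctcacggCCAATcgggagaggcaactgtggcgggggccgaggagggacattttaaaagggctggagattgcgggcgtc
Slc25a28: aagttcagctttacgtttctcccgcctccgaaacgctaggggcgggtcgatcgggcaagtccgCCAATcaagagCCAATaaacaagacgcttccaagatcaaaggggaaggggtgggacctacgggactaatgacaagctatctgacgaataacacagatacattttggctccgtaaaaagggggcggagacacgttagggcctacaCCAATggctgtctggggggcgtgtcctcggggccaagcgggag
Slc25a10: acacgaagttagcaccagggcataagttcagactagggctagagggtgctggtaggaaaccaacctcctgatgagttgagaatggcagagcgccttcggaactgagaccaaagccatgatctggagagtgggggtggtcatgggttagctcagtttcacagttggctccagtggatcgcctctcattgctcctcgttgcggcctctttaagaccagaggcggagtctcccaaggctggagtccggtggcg
Slc25a20: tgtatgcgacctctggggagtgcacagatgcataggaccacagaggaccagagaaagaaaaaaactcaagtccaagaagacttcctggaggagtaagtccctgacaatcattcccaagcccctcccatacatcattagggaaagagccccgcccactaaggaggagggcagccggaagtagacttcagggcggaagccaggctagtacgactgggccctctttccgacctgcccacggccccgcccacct
The 2 that fell held CCAAT boxes, Sfxn5 at 71 bases before the start and Slc25a28 at 187, 176 and 43 bases, and the 2 that rose held none in this window. CCAAT occurred on either strand in 25 of the members' 50 windows (50%) and in 33.8% of all 32851. The nuclear receptor half-site AGGTCA (reverse complement TGACCT) was in 10% of members' windows and 14% of all, the E-box CACGTG in 16% and 6.02%, and the TATA box TATAAA (reverse complement TTTATA) in 2% and 12.4%. None of these 3 was in the 4 windows shown. A match describes letters only, and no binding was measured.

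Sfxn5, a sideroflexin whose substrate is less settled than that of Sfxn1, was lower in pups nursed by MetS dams (Ensembl ENSMUSG00000033720). Its lowest, median and highest levels were 36.0, 46.8 and 54.0 CPM in Ct-Ct and, in the same order, 36.6, 44.4 and 47.5 CPM for MetS-Ct and 24.2, 28.6 and 34.7 CPM for Ct-MetS. The 5 livers of MetS-MetS held 29.0, 38.8, 30.6, 31.2 and 35.3 CPM. All 6 Ct-MetS livers and 4 of 5 MetS-MetS livers lay below every liver of the Ct-nursed groups, the exception being MetS-MetS_109. Group means were 46.3 ± 6.40 (SD, n = 6) in Ct-Ct, 43.2 ± 4.86 (n = 6) with prenatal exposure, 29.0 ± 3.84 (n = 6) with nursing exposure and 32.97 ± 3.99 (n = 5) with both. Sfxn5 fell by 0.68 ± 0.105 (SE) log2 units in Ct-MetS (edgeR adjusted p = 0.00669), by 0.49 ± 0.111 in MetS-MetS (adjusted p = 0.0168) and by 0.53 ± 0.0763 with nursing exposure (adjusted p = 0.000566). Each of the 3 calls held without any 1 library, with adjusted p of at most 0.0323, 0.0488 and 0.00192, and by DESeq2 and limma-voom. In MetS-MetS against MetS-Ct the log2 fold change was -0.39 ± 0.110 (adjusted p = 0.125).

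**Figure D3:**
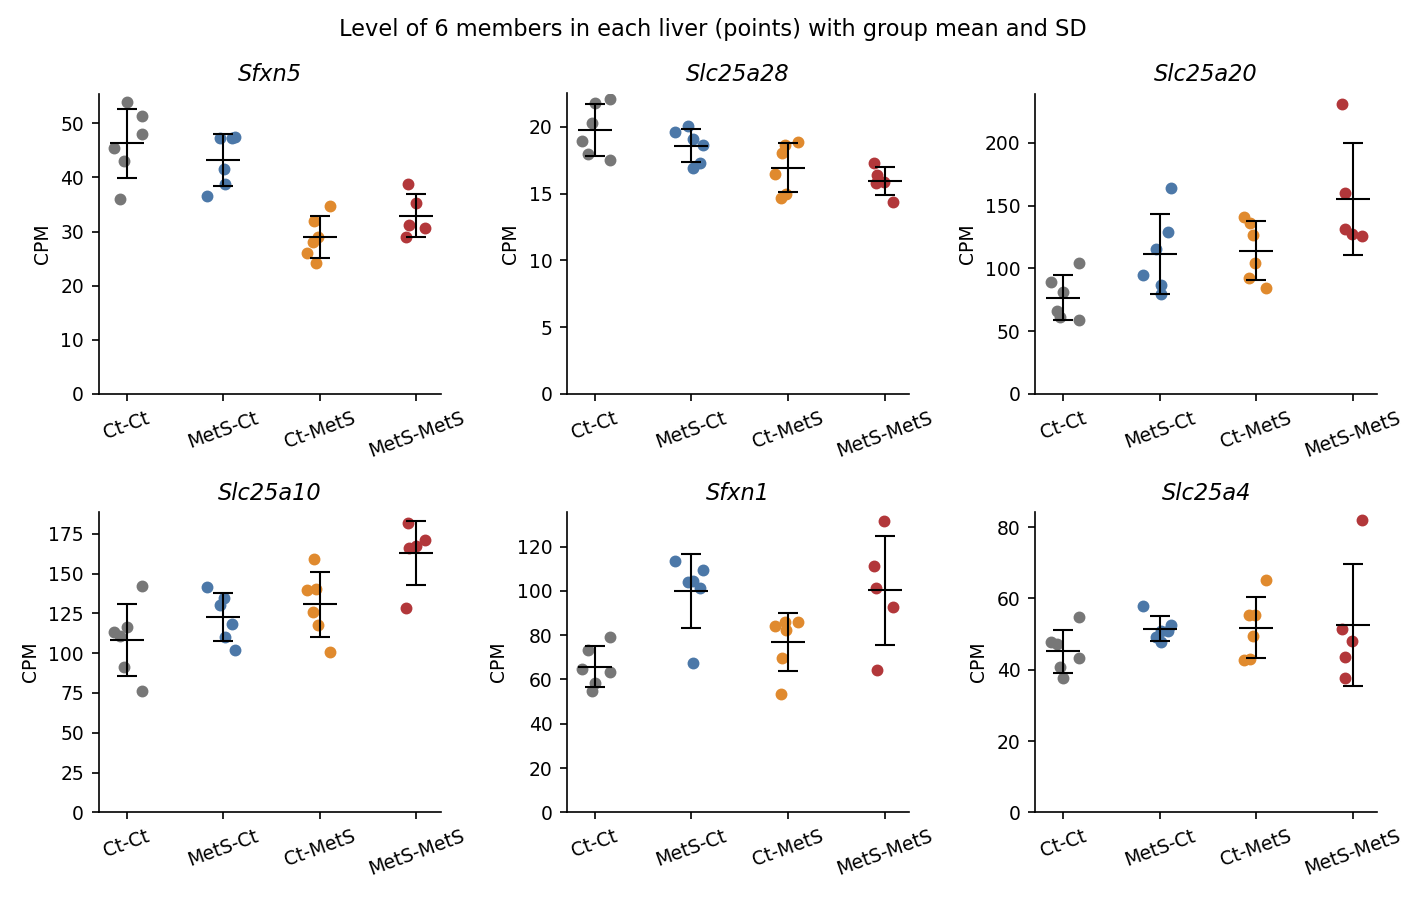
Level in CPM of the 5 called members and Slc25a4 in each liver (points), with group mean and SD (black). For Sfxn5, 10 of the 11 MetS-nursed livers lie below all 12 Ct-nursed livers, and for Slc25a20 all 5 MetS-MetS livers lie above the 6 Ct-Ct livers.

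Sfxn1, which brings serine into mitochondria for one-carbon metabolism, had its higher group means in pups born to MetS dams (Ensembl ENSMUSG00000021474). Means were 65.7 ± 9.21 CPM in Ct-Ct and 76.9 ± 12.95 in Ct-MetS pups, born to control dams, against 99.98 ± 16.6 in MetS-Ct and 100.2 ± 24.8 in MetS-MetS pups (SD). The lowest, median and highest levels were 54.6, 64.0 and 79.4 CPM in Ct-Ct and 53.6, 83.1 and 86.1 CPM in Ct-MetS. They were 67.3, 104 and 114 CPM in MetS-Ct, and the MetS-MetS values were 111, 101, 92.7, 64.3 and 132 CPM. Of the prenatally exposed livers, 5 of 6 MetS-Ct and 4 of 5 MetS-MetS livers were above every Ct-Ct liver, and MetS-Ct_149 and MetS-MetS_154 lay inside the Ct-Ct range. Sfxn1 rose by 0.61 ± 0.158 (SE) log2 units in MetS-MetS (edgeR adjusted p = 0.0273), a call lost without Ct-Ct_4 (adjusted p = 0.0599), Ct-Ct_129 (0.0656), Ct-Ct_139 (0.0653) or MetS-MetS_157 (0.0859). In MetS-Ct the log2 fold change was the same size, 0.61 ± 0.151, with an adjusted p of 0.447 by edgeR and 0.0488 by DESeq2. Averaged over both nursing states the prenatal difference was 0.49 ± 0.109 (adjusted p = 0.156 by edgeR, 0.0123 by DESeq2), and the interaction was -0.22 ± 0.218 (edgeR adjusted p = 0.916).

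The other sideroflexins gave no call. Sfxn2, an inner membrane protein tied to iron handling, had means of 89.2 CPM in Ct-Ct and 86.0 in Ct-MetS, and of 107 in MetS-Ct and 101 in MetS-MetS, with a prenatal log2 fold change of 0.25 ± 0.0971 (edgeR adjusted p = 0.228). Sfxn3, a relative of Sfxn1, lay between 1.66 and 3.72 CPM and Sfxn4, which takes part in complex I assembly, between 0.285 and 1.23 CPM, at low counts that limit their precision. None of 7 mitochondrial one-carbon enzymes was called with nursing exposure or in MetS-MetS by edgeR, although 2 had an unadjusted p under 0.05 in each.

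Slc25a20 carries acylcarnitines into the matrix in exchange for carnitine, the step between the carnitine palmitoyltransferases Cpt1a and Cpt2 (Ensembl ENSMUSG00000032602). Its lowest, median and highest levels were 58.7, 73.5 and 104 CPM in Ct-Ct, followed by 79.4, 105 and 164 CPM for MetS-Ct and 84.3, 116 and 141 CPM for Ct-MetS. With both exposures the livers held 231, 132, 126, 160 and 127 CPM. All 5 MetS-MetS livers were above every Ct-Ct liver, as were 3 of 6 in each singly exposed group, and all 17 exposed livers were above the Ct-Ct mean. In MetS-MetS the gene rose 2.02-fold, by 1.02 ± 0.202 (SE) log2 units (edgeR adjusted p = 0.0107), a call that held without any 1 library (adjusted p of at most 0.0340). MetS-MetS_39 was far above the other 4, and the log2 fold change was between 0.83 and 1.12 over all libraries left out. The singly exposed groups gave 0.54 ± 0.194 in MetS-Ct (adjusted p = 0.825) and 0.57 ± 0.194 in Ct-MetS (adjusted p = 0.159). The interaction was -0.10 ± 0.280 (adjusted p = 0.970), so no departure from additive log2 differences was detected.

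With nursing exposure Slc25a20 rose by 0.53 ± 0.140 (SE) log2 units (edgeR adjusted p = 0.0362), and this call was lost in turn without 12 of the 23 libraries (adjusted p from 0.0514 to 0.0651), among them Ct-Ct_129, which gave the highest. The prenatal difference was 0.49 ± 0.140 (adjusted p = 0.164 by edgeR, 0.0484 by DESeq2). The median of 5 carnitine shuttle enzymes listed beside the carrier was 0.90 log2 units in MetS-MetS, against -0.0038 over all genes. Of these enzymes, 4 rose (beside 3.06% of all genes called higher). They were Cpt2 (0.91 ± 0.168, adjusted p = 0.00724), the acyl-CoA synthetase Acsl1 (0.86 ± 0.171, adjusted p = 0.0106), Cpt1a (0.90 ± 0.187, adjusted p = 0.0120) and the carnitine acetyltransferase Crat (1.37 ± 0.400, adjusted p = 0.0470). The fifth, the plasma membrane carnitine transporter Slc22a5, was at 0.80 ± 0.250 (adjusted p = 0.0589). With nursing exposure Acsl1, Cpt1a and Cpt2 rose (3 of 5, beside 2.27% of all genes called higher). In MetS-Ct against Ct-Ct all 5 enzymes were above 0 (median 0.40), 3 with an unadjusted p under 0.05 (5.9% of all genes). For prenatal exposure averaged over both nursing states all 5 were above 0 (median 0.37), 4 with such a p (16.3% of all genes). In both of these comparisons 0 of the 5 were called by edgeR. Hepatocyte marker sums were 105500 to 136400 CPM in the unexposed and 130600 to 147300 CPM in the MetS-MetS livers, and 0 of the 6 markers was called by edgeR (3 had an unadjusted p under 0.05); their part in these results was not tested.

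Slc25a10 exchanges malate and succinate for phosphate (Ensembl ENSMUSG00000025792). Its lowest, median and highest levels were 76.1, 112 and 142 CPM in Ct-Ct, with 102, 124 and 142 CPM for MetS-Ct and 101, 133 and 159 CPM for Ct-MetS. MetS-MetS livers held 128 CPM (MetS-MetS_39) and 182, 171, 166 and 168 CPM. All but the first of the 5 were above all Ct-Ct livers, whereas MetS-Ct overlapped Ct-Ct in full. The gene rose by 0.59 ± 0.136 (SE) log2 units in MetS-MetS (edgeR adjusted p = 0.0179, at most 0.0498 without any 1 library). With nursing exposure it rose by 0.34 ± 0.0942 (adjusted p = 0.0429), a call lost in turn without 16 of the 23 libraries (adjusted p from 0.0529 to 0.0764, the highest without Ct-MetS_24). Its exons share 6.6% of their bases with the antisense gene Gm11788, and strand use in counting is not stated in those sources.

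The other carboxylate, phosphate and pyruvate carriers did not pass. Slc25a1, which exports citrate for fatty acid synthesis, had means of 148 ± 41.6 CPM in unexposed and 120 ± 20.9 CPM in MetS-MetS livers (SD), a log2 fold change of -0.30 ± 0.225 (SE, edgeR adjusted p = 0.432), with ranges of 102 to 206 and 91.2 to 142 CPM that overlapped. Slc25a3, which supplies phosphate for ATP synthesis, stayed between 278 and 382 CPM in all livers. For Mpc1 and Mpc2 the log2 fold changes with nursing exposure were 0.08 ± 0.0777 and 0.08 ± 0.0711 (adjusted p = 0.575 and 0.569), and 23.1% of the exonic bases of Mpc1 overlap a transcript of the opposite strand. The oxodicarboxylate carrier Slc25a21 was at -0.41 ± 0.124 in Ct-MetS and the branched-chain amino acid carrier Slc25a44 at -0.48 ± 0.150 (adjusted p = 0.111 and 0.126). Both were called by edgeR there when Ct-Ct_33 was left out (adjusted p = 0.0408 and 0.048), which brought the count in Ct-MetS from 1 to 3. Without that library both were also called with nursing exposure (0.0384 and 0.0423), and Slc25a21 in MetS-MetS (0.0356); the pair is named after its values were seen.

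Among 12 enzymes of citrate export and pyruvate entry, 3 fell with nursing exposure (beside 1.95% of all genes called lower) and 0 rose. The median of the 12 was -0.16 log2 units, against -0.01 over all genes. The pyruvate dehydrogenase subunits Pdhb and Pdha1 fell by 0.45 ± 0.0827 and 0.26 ± 0.0587 (SE; edgeR adjusted p = 0.00468 and 0.0156). The ATP-citrate lyase Acly, which uses exported citrate, fell by 1.53 ± 0.418 (adjusted p = 0.0427), from a Ct-Ct group in which it ranged from 206 to 2671 CPM. In MetS-MetS the malic enzyme Me1 also fell, by 1.79 ± 0.521 (adjusted p = 0.0470). The list also lay lower without MetS nursing: in MetS-Ct against Ct-Ct its median was -0.22, and 3 of the 12 were above 0. There 5 had an unadjusted p under 0.05 and 0 were called. Mean CPM in Ct-Ct and MetS-Ct was 215.2 and 156.5 for Pdhb, 141.6 and 129.2 for Pdha1, and 991.9 and 368.4 for Acly. Between MetS-MetS and MetS-Ct the median was -0.06, 6 were above 0 and 0 had such a p. For the interaction the median was 0.36 and 11 were above 0, with 0 called. The citrate carrier Slc25a1 itself was thus not called in comparisons in which Acly was; the difference between the 2 genes was not tested.

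Slc25a28, known as mitoferrin 2, brings iron into mitochondria outside red cell precursors (Ensembl ENSMUSG00000040414). Its lowest, median and highest levels were 17.5, 19.6 and 22.1 CPM in Ct-Ct, then 16.9, 18.9 and 20.1 CPM for MetS-Ct and 14.7, 17.2 and 18.8 CPM for Ct-MetS. Levels with both exposures were 17.3, 15.8, 14.4, 16.4 and 15.9 CPM. All 5 MetS-MetS livers and 3 of 6 Ct-MetS livers were below every Ct-Ct liver, and the difference was small: 0.31 ± 0.0852 (SE) log2 units lower in MetS-MetS (edgeR adjusted p = 0.0361) and 0.22 ± 0.0586 lower with nursing exposure (adjusted p = 0.0341). The MetS-MetS call was lost without MetS-MetS_110 (adjusted p = 0.10), MetS-MetS_109 (0.0679), MetS-MetS_154 (0.0564), MetS-MetS_157 (0.0746), Ct-Ct_4 (0.0821), Ct-Ct_10 (0.0590) or Ct-Ct_139 (0.0710). The nursing call was lost in turn without 13 libraries (adjusted p from 0.0529 to 0.0709, the highest without MetS-MetS_110).

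Slc25a37, mitoferrin 1, serves red cell precursors and was at 38.4 ± 5.46 CPM in MetS-MetS, 30.5 ± 2.78 in Ct-MetS, 31.1 ± 4.49 in MetS-Ct and 32.5 ± 7.41 in Ct-Ct (SD), with a log2 fold change of 0.24 ± 0.131 (SE) in MetS-MetS (edgeR adjusted p = 0.265). Without Ct-Ct_33, its highest Ct-Ct liver, the log2 fold change was 0.37 and passed the test (edgeR adjusted p = 0.046). The sum of 10 erythroid markers was 424 to 774 CPM in MetS-MetS, 206 to 497 in Ct-MetS, 184 to 306 in MetS-Ct and 286 to 833 in Ct-Ct, and their part in the level of Slc25a37 was not tested. Slc25a38, which brings in glycine for haem synthesis, had group means between 17.3 and 21.5 CPM and a log2 fold change of -0.16 ± 0.0797 with nursing exposure (adjusted p = 0.251). The glutathione carrier Slc25a39 had means between 250 and 286 CPM and a log2 fold change of 0.19 ± 0.0890 in MetS-MetS (adjusted p = 0.184). Of 9 mitochondrial iron, haem and glutathione partners, 0 were called with nursing exposure or in MetS-MetS by edgeR, and 1 had an unadjusted p under 0.05 in each.

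The amino acid and urea cycle carriers gave no call by edgeR over all 23 libraries besides Slc25a20, which is listed among them. Slc25a13 supplies aspartate to the urea cycle and the malate-aspartate shuttle and was at 230 ± 38.3 CPM in unexposed and 301 ± 32.3 CPM in MetS-MetS livers (SD). Its log2 fold change there was 0.39 ± 0.123 (SE), with an adjusted p of 0.0617 by edgeR and 0.0310 by DESeq2, and edgeR called it without Ct-Ct_10 (adjusted p = 0.0315) or MetS-Ct_149 (0.0403). Its MetS-MetS values were 281, 298, 292, 276 and 356 CPM, and the highest Ct-Ct liver, at 285 CPM, overlapped the lowest 2. Slc25a15, which exchanges ornithine for citrulline, had group means of 378 CPM (Ct-Ct), 374 (MetS-Ct), 288 (Ct-MetS) and 315 CPM (MetS-MetS) and a log2 fold change of -0.32 ± 0.142 with nursing exposure (adjusted p = 0.195). The glutamate carrier Slc25a22 was in the same comparison at -0.19 ± 0.163 (adjusted p = 0.540) and Slc25a47, between 593 and 623 CPM in all 4 group means, at 0.04 ± 0.150 (adjusted p = 0.919). None of 6 urea cycle enzymes was called with nursing exposure by edgeR. There 3 had an unadjusted p under 0.05, with a median of -0.35 and all 6 below 0. For prenatal exposure averaged over both nursing states 0 were called and 4 had such a p, with a median of 0.22 and all 6 above 0. In MetS-MetS against Ct-Ct the median was 0.015, with 3 of the 6 above 0 and 0 called.

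Slc25a4, the ADP/ATP carrier typical of heart and muscle, was highest in a library that stood apart. It was at 81.9 CPM in MetS-MetS_110, the library with muscle transcripts, and between 37.6 and 65.04 CPM in the other 22. The mean of the other 4 MetS-MetS livers was 45.2 ± 5.93 CPM (SD), beside a Ct-Ct mean of 45.2 ± 6.02. The log2 fold change with nursing exposure was 0.11 ± 0.103 (SE; edgeR adjusted p = 0.571), and 0.0035 without that library. Slc25a5, the form abundant in liver, was at -0.05 ± 0.0543 (adjusted p = 0.605).

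**Figure D4:**
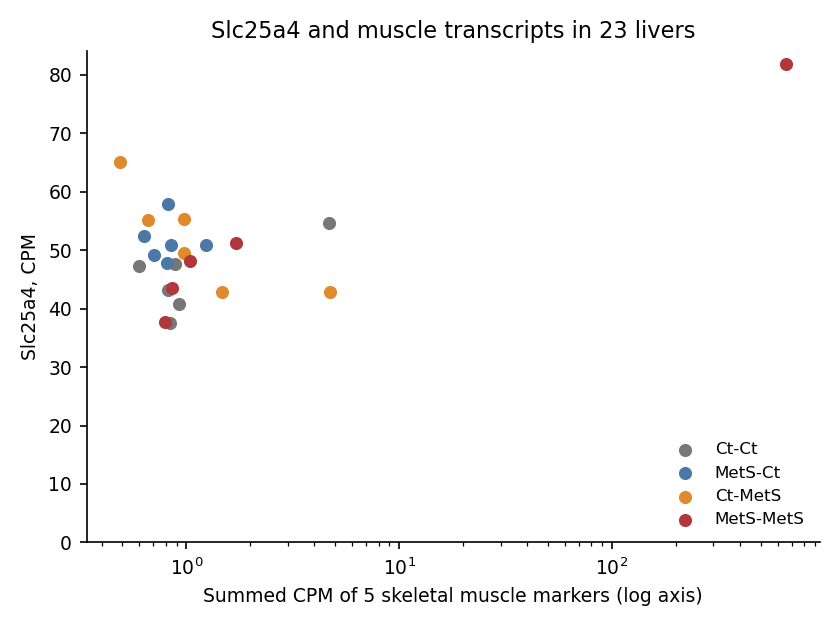
Slc25a4 level in CPM against the summed CPM of 5 skeletal muscle markers (log axis) in 23 livers, coloured by group. MetS-MetS_110 stands alone at 660.8 CPM of muscle markers and 81.9 CPM of Slc25a4.

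Outside the members, some genes of the machinery around the carriers were called by edgeR. Over all genes, 5.78% were called in MetS-MetS against Ct-Ct and 4.22% with nursing exposure. Of 12 genes of the TIM22 route, which inserts carriers into the inner membrane, 0 were called with nursing exposure by edgeR (3 had an unadjusted p under 0.05), and in MetS-MetS the import receptor Tomm70a rose by 0.40 ± 0.0939 (SE; adjusted p = 0.0198). Of 6 shuttle enzymes, the aspartate aminotransferase Got2 rose in MetS-MetS by 0.25 ± 0.0732 (adjusted p = 0.0483), and of 10 genes taken as references for mitochondrial mass, the mitochondrial DNA packaging factor Tfam rose by 0.27 ± 0.0801 (adjusted p = 0.0491). The uncoupling protein Ucp2, a carrier relative whose symbol keeps it out of the members, rose by 0.69 ± 0.0730 with nursing exposure (adjusted p = 2.97e-05), from group means of 31.2 and 36.8 CPM in the Ct-nursed to 52.0 and 57.6 CPM in the MetS-nursed pups.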

How the data were processed

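Per the labels, livers were flash frozen, RNA was column purified and treated with DNase, and a directional kit was used for the libraries. The authors deposited whole-number counts per Ensembl gene in 1 table of 23 columns; it is named as normalised, but the size factors of its values ranged from 0.623 to 1.42, so they were tested as raw counts. FastQC, STAR, HTSeq and DESeq2 are named, per the submitters' processing notes; their roles and versions, the build, the annotation and strand use are not stated there. Symbols came from a table of Ensembl identifiers and matched 49326 rows; 259 rows had none.

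Genes averaging at least 10 counts were tested with edgeR 4.0.16 (R 4.3.3): quasi-likelihood test, TMM, 1 mean per group, all 23 libraries, Benjamini-Hochberg adjustment over 14466 genes, calls at an adjusted p under 0.05. Library depth, given with the results, limits the precision of members at low counts. Standard errors were derived from each fold change and its F statistic. CPM values use effective library sizes. Scripts were tested on simulated data. DESeq2 1.42.0, limma-voom (limma 3.58.1), other size factors, filters, non-robust estimation, thinned depth, fits of only the groups compared and leaving out each library were alternatives. Levels per kb use GENCODE M21 exons. All libraries of a group correlated at 0.964 or more and each counted as 1 replicate.

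The members and gene lists were chosen with earlier results of these data known. By rule every called member was named, 21 members were always described, and up to 4 called genes of each list by smallest p; genes named outside it were chosen after their values were seen.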

Additional observations from a re-analysis of the deposited data

Results flagged for a closer look

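Among 88 group and member combinations, 4 had a library far from the rest of its group; chance alone gives about 1 in 20. Sfxn1 was at 67.32 CPM in MetS-Ct_149, against 101.2 CPM in the next lowest liver of the group. Slc25a13 was at 356.3 CPM in MetS-MetS_157, against 297.5 in the next highest. The glutamate carrier Slc25a22 was at 336.7 CPM in MetS-Ct_53, against 199.9 in the next highest. Slc25a38 was at 23.38 CPM in Ct-MetS_50, against 17.06 in the next highest. No interaction of the exposure windows passed the threshold in any of the 22 members described.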

How the results depend on the processing

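No paired analysis was possible because animal numbers are not shared between groups. Counts of called members kept within 1.5 times of the reported ones except as follows. In MetS-Ct against Ct-Ct, DESeq2 gave 1 in place of 0, and for prenatal exposure 2 in place of 0. In MetS-MetS against Ct-Ct, a fit of only those groups gave 3 in place of 5. With nursing exposure, no filter on low counts gave 1 in place of 4. Leaving out 1 library gave 1 to 3 members in Ct-MetS, 3 to 7 in MetS-MetS against Ct-Ct and 1 to 6 with nursing exposure. Without the muscle-bearing MetS-MetS_110 these were 1, 4 and 2. Of the 44 members uncalled with nursing exposure, 9 changed sign there under some alternative, 2 of them among the 18 described by name: Slc25a25 (0.17 by limma-voom, -0.28 to 0.11 over libraries left out) and Slc25a47 (-0.0414 to 0.108). The causes were not tested.

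Over all genes, counts of calls moved by more than 1.5 times in the following cases. Leaving out 1 library gave 12 to 246 genes in Ct-MetS against Ct-Ct, 219 to 1354 in MetS-MetS against Ct-Ct, 5 to 151 in MetS-MetS against MetS-Ct, 0 to 31 in MetS-MetS against Ct-MetS, 349 to 923 with nursing and 0 to 22 with prenatal exposure. Against Ct-Ct, DESeq2 called 14 genes for MetS-Ct (0 reported), 425 for Ct-MetS (138) and 1346 for MetS-MetS (836). It called 73 between MetS-MetS and Ct-MetS (0), 1038 with nursing (611) and 165 with prenatal exposure (1) and 4 for the interaction (0). In MetS-MetS against MetS-Ct (60) DESeq2 called 136, of which 67 were higher and 69 lower, against 37 and 23; limma-voom called 16, no filter 20, a mean of 50 counts 30, thinned depth 25 and the 2 groups alone 25. Limma-voom gave 527 in MetS-MetS, no filter 457 there and 367 with nursing exposure, and the 2 groups alone 45 in Ct-MetS.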

Other observations

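After group means were removed, the levels of some members moved together across the 23 livers. Of 1128 pairs of members, 18 had an adjusted p under 0.05 by 100000 permutations within groups, 15 with a positive and 3 with a negative correlation of log2 CPM. Pairs of other genes were not examined, so whether this number is particular to the members was not tested. The sideroflexin Sfxn2 and the citrate carrier Slc25a1 were opposed (Pearson r = -0.844, p = 1e-05, the smallest these permutations can give, adjusted p = 0.0113; Spearman rho = -0.82, p = 7e-05), with r of -0.944, -0.799, -0.934 and -0.756 within Ct-Ct, MetS-Ct, Ct-MetS and MetS-MetS. Without the 2 livers farthest from the median r was -0.781. Sfxn2 and the NAD carrier Slc25a51 moved together (r = 0.831, permutation p = 4e-05, adjusted p = 0.0226; rho = 0.83, p = 2e-05; r = 0.811 without the 2 farthest). These pairs were noticed in the same data and share libraries, depth and scaling.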
